A study of Mus musculus with 6 samples.

Results

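T cell receptor gene segments are described here through 11 of the 45037 mouse probe sets on these arrays that are not controls. They were chosen by name: a probe set entered if any of its annotated symbols was that of a variable, diversity, joining or constant segment of the alpha, beta, gamma or delta receptor locus, written with digits and hyphens only after the segment letter, or began with the older locus names. A further 7 probe sets of alpha variable segments carry a D or N letter in the symbol, did not enter, and are given apart. The 11 probe sets carry 8 symbols, of which 1 probe set carries 2 (Trgv4 and Trgv2). By chain, 3 probe sets belong to alpha, 3 to beta, 5 to gamma and 0 to delta.

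The arrays compared 2 kinds of cultured mouse T cell, each with 3 samples. The 2D11 samples (replicates 1, 2 and 4) are labelled as CD8aa Tregs, cells with a CD8 alpha homodimer that the series title describes as restricted by the class Ib molecule Qa-1. The OvacD8 samples (replicates 1, 2 and 3) are labelled OT-1 CD8aa+TCRab+ T cells, that is, cells named for the OT-1 transgenic receptor against an ovalbumin peptide. Both were listed as T cell clones and kept with their own antigen, antigen-presenting cells and IL-2; no strain, age or further allele is given in the labels. Each group may therefore be 1 clone sampled 3 times, so the spread behind each p-value may be technical only, and a difference belongs to these lines.

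A T cell receptor is assembled in the thymus by joining a variable segment to joining segments, and in the beta and delta chains to a diversity segment as well, after which the constant region is spliced on. Because rearrangement is permanent, the progeny of a single cell carry the same joined segments, and the segments in use are a fingerprint of a clone. Most T cells pair an alpha with a beta chain; a smaller lineage pairs gamma with delta, but gamma genes are often rearranged in alpha beta T cells too. The OT-1 receptor is known to be built from a Trav14 alpha and a Trbv12 beta segment. No probe set of the platform's gene table carried a Trav14 symbol (0) or a Trbv12 symbol (0), and 0 carried a constant region symbol, so the transgenic receptor's own segments were not read by name here.

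Segment readings separated the lines at a gamma and a beta probe set. The Trgv1 probe set was 9.23-fold higher in 2D11 and one of the Trbv1 probe sets was 3.04-fold lower; none of the 3 alpha members passed, while 2 of the 7 alpha probe sets with a D or N letter did. A probe set passed at an adjusted p under 0.05 (limma, Benjamini-Hochberg over all 45037 probe sets). Of the 11, 1 was higher, 1 was lower and 9 did not pass, so 18.2% passed, against 4.06% of all probe sets (2.00% higher, 2.05% lower). Both also reached a 2-fold difference, as did 2.32% of all probe sets. With so few members, the share rests on 2 probe sets. The median difference of the 11 was 0.00 on the log2 scale, and over all probe sets it was 0.01. The median size of the difference, sign left aside, was 0.09 for the 11 and 0.06 for all.

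The values were taken to be log2 values, from which the median of each probe set over the 6 arrays had been taken away. They show how arrays differ at a probe set, not how bright it was: a reading below 0 is not low expression, and a segment that neither line used cannot be told from a segment used alike by both. Nor can probe sets be ranked against each other by level.

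**Figure D1:**
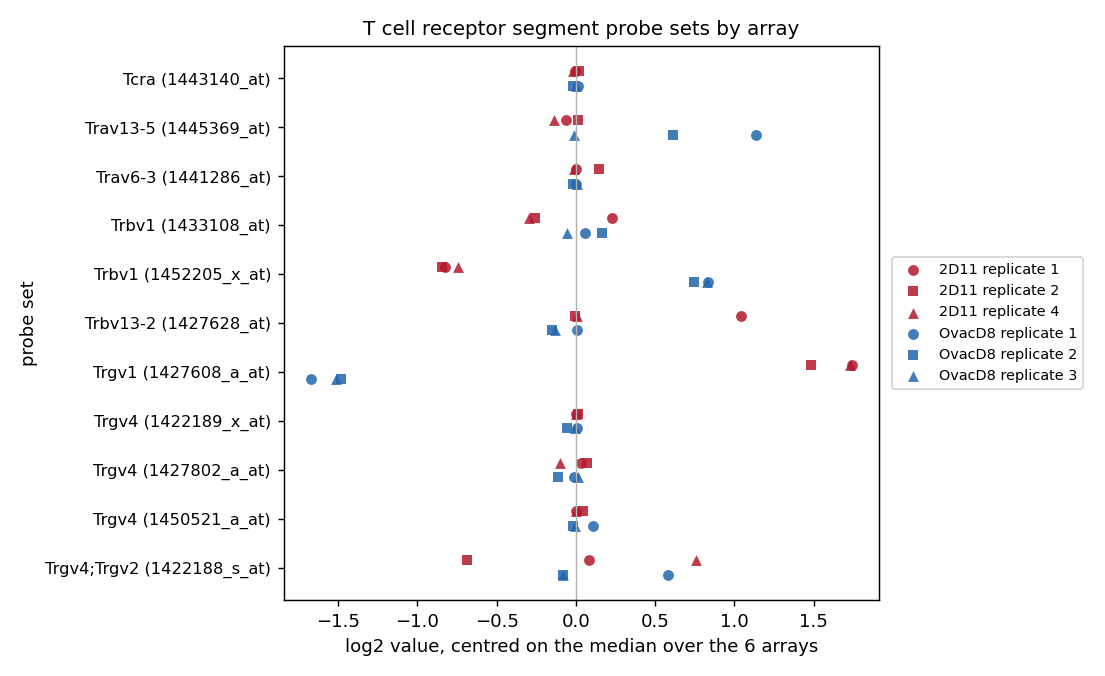
Each row is 1 receptor probe set, and each point the centred log2 value of 1 array (red, 2D11; blue, OvacD8; marker shape, replicate). Trgv1 runs from -1.67 to 1.74 and the Trbv1 probe set 1452205_x_at from -0.84 to 0.84 with the lines fully apart, whereas the lines overlap in the other 9 rows.

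The probe set named for the gamma variable segment Trgv1, which encodes the antigen-facing part of a gamma chain, gave the widest separation among the members. Without its probe sequences, the stretch of transcript it reads is not known, and the change cannot be assigned to use of that segment. The probe set (1427608_a_at) read 1.74, 1.48 and 1.73 in 2D11 replicates 1, 2 and 4. In OvacD8 replicates 1, 2 and 3 it read -1.67, -1.48 and -1.51. All 2D11 arrays were thus high and all OvacD8 arrays low, with a gap far wider than the scatter inside either line. The group means were 1.65 ± 0.15 (SD, n = 3) and -1.56 ± 0.10 (SD, n = 3). The difference was 3.21 ± 0.09 (SE; 95% interval 2.96 to 3.45; limma adjusted p = 0.000391). Of all 45037 probe sets, it was number 65 by size among differences in favour of 2D11.

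The other 4 gamma probe sets did not pass. Trgv4, another gamma variable segment, has 3 probe sets of its own. The first (1422189_x_at) differed by 0.02 (95% interval -0.04 to 0.08), the second (1427802_a_at) by 0.04 (-0.12 to 0.19) and the third (1450521_a_at) by -0.01 (-0.12 to 0.09). These narrow intervals exclude a change of the size seen at Trgv1 in the measured values. RMA compresses differences near background, and the intervals do not show that the lines use the segment alike.

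The probe set shared by Trgv4 and Trgv2 (1422188_s_at) moved between arrays without following the lines. It read 0.08, -0.68 and 0.76 in 2D11 replicates 1, 2 and 4, and 0.58, -0.08 and -0.08 in OvacD8 replicates 1, 2 and 3. The highest and the lowest of the 6 arrays were both 2D11. Its difference was -0.09 ± 0.43 (SE; 95% interval -1.20 to 1.02; limma adjusted p = 0.944). The sign turned without 2D11 replicate 2 (0.28) and without OvacD8 replicate 1 (0.13), and neither value passed. Its identifier ends in _s_at, the array maker's mark for probes common to several transcripts, so its reading cannot be assigned to either segment.

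Markers of gamma delta T cells were read beside Trgv1. Of 10 probe sets for 4 such genes, 1 passed: a probe set (1447849_s_at) of the transcription factor gene Maf was higher in 2D11 by 2.04 (limma adjusted p = 0.00785; 0.0516 without OvacD8 replicate 2). The summed value of the list lay between 2.28 and 3.08 in 2D11 and between -3.57 and -1.92 in OvacD8. Of the 10 probe sets, 6 are of Maf, so the sum is largely that of Maf. The other Maf probe sets did not pass, with differences from -0.01 (1437473_at) to 2.35 (1456060_at; limma adjusted p = 0.105). The other 3 genes moved little: Blk, a Src family kinase, spanned 0.03 over the 6 arrays, the scavenger receptor gene Cd163l1 at most 0.09, and the transcription factor gene Sox13 0.34. Maf is also made by alpha beta T cells. The part of these markers in the Trgv1 difference was not tested.

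Among beta segments, Trbv1, called Tcrb-V2 in older naming, was read by 2 probe sets that disagreed. Probe set 1452205_x_at read -0.83, -0.84 and -0.74 in 2D11 replicates 1, 2 and 4. In OvacD8 replicates 1, 2 and 3 it read 0.84, 0.74 and 0.82. The OvacD8 arrays were all high and lay within 0.10 of each other, as did the 2D11 arrays on the low side. The difference was -1.60 ± 0.04 (SE; 95% interval -1.71 to -1.50; limma adjusted p = 0.000286), number 647 by size among differences in favour of OvacD8. The pooled SD within the lines was 0.05 at this probe set and 0.13 at Trgv1, against a median of 0.23 over the 1044 probe sets that passed with at least a 2-fold difference.

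Probe set 1433108_at of the same segment read 0.23, -0.26 and -0.30 in 2D11 replicates 1, 2 and 4. It read 0.05, 0.16 and -0.05 in OvacD8 replicates 1, 2 and 3, inside the 2D11 range. Its difference was -0.16 ± 0.16 (SE; 95% interval -0.59 to 0.26; limma adjusted p = 0.782). The mean of the 2 Trbv1 probe sets was lower in 2D11 by -0.88 (limma adjusted p = 0.00634). The identifier of the probe set that passed ends in _x_at, a mark for probes that can bind sequences other than the named one, and the change cannot be assigned to Trbv1 itself.

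Trbv13-2, called Tcrb-V8.2 in older naming, is a beta segment much studied in the autoimmune T cells of mouse encephalomyelitis. Its probe set (1427628_at) read 1.04 in 2D11 replicate 1, but -0.01 and 0.01 in replicates 2 and 4. OvacD8 replicates 1, 2 and 3 read 0.01, -0.15 and -0.13. A single 2D11 array stood high while the other 5 arrays lay close together. The difference of 0.44 ± 0.32 (SE; 95% interval -0.39 to 1.27) did not pass (limma adjusted p = 0.687), and without 2D11 replicate 1 it was 0.09.

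**Figure D2:**
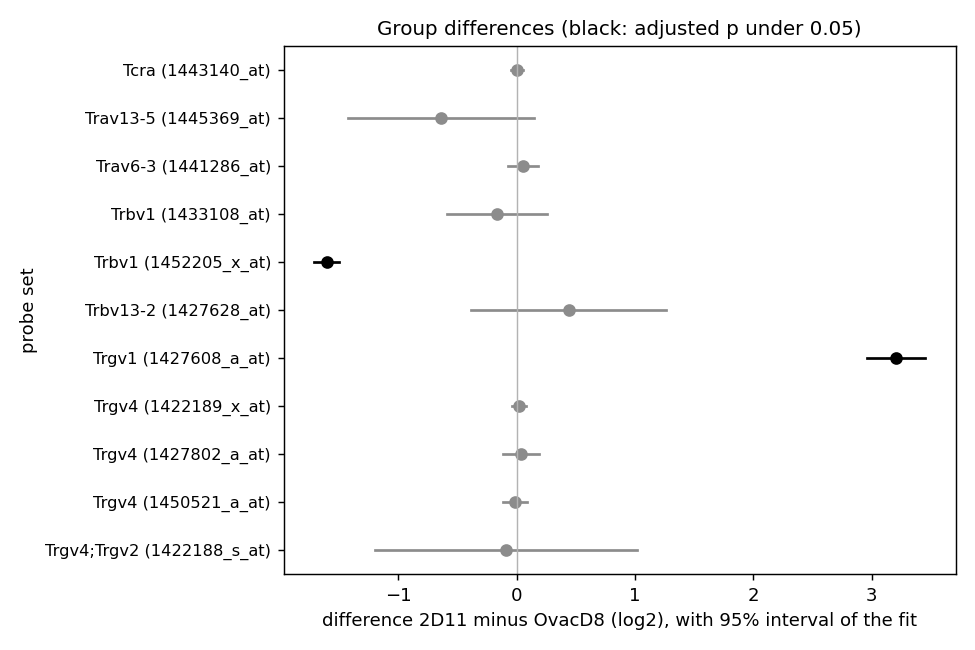
Points are the group differences of the 11 receptor probe sets (2D11 minus OvacD8, log2), and bars their 95% intervals from the fit over all 6 arrays. Trgv1 at 3.21 and Trbv1 1452205_x_at at -1.60, in black, passed; the widest interval, -1.20 to 1.02, is that of the probe set shared by Trgv4 and Trgv2.

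The 3 alpha members gave no call with limma, and 0 of them had an unadjusted p under 0.05. Trav13-5, an alpha variable segment (1445369_at), read -0.06, 0.01 and -0.14 in 2D11 replicates 1, 2 and 4. It read 1.14, 0.61 and -0.01 in OvacD8 replicates 1, 2 and 3. The OvacD8 arrays were spread widely, and the lowest of them lay inside the 2D11 range. The difference was -0.64 ± 0.30 (SE; 95% interval -1.43 to 0.15; limma adjusted p = 0.421), and -0.36 without OvacD8 replicate 1. Trav6-3 (1441286_at) differed by 0.05 (95% interval -0.07 to 0.18) and its highest reading was 0.15, in 2D11 replicate 2. The probe set named for the whole alpha locus, Tcra (1443140_at), spanned 0.04 over the 6 arrays, the least of the 11, with a difference of 0.00 (95% interval -0.05 to 0.05).

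The 6 members that neither passed nor spanned at least 1 over the arrays all read between -0.30 and 0.23. A span of at least 1 was reached by 5 of the 11, against 15.6% of all probe sets, and the lines did not overlap in 2 of the 11, against 20.3%. By design of the probe set, the calls fell on 1 of 3 with identifiers ending in _a_at, a mark for transcripts of a single gene, and on 1 of 2 ending in _x_at. They fell on 0 of 5 with a plain _at ending and 0 of 1 ending in _s_at. Calls over all probe sets were not counted by ending, so this split cannot be set against the whole array. At an unadjusted p under 0.05 the count was also 2 of 11, 18.2%, near the 16.0% of all probe sets.

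The OvacD8 arrays were not alike over the whole array. Across the probe sets that spanned at least 0.1, OvacD8 replicates 2 and 3 correlated at 0.85, and replicate 1 correlated with them at 0.30 and 0.35. Bacterial poly-A control transcripts, added to RNA to follow its labelling, averaged -1.41 and -2.13 in OvacD8 replicates 2 and 3, against 0.44 in OvacD8 replicate 1 and -0.09 to 0.73 in 2D11. Of 30 probe sets for genes of antigen-presenting cells, 6 stood at least 1 above all other arrays in OvacD8 replicate 1. They are of Csf1r, Lyz2, Cd74 and H2-Aa. Probe sets standing out in this way were not counted over the whole array, so the 6 cannot be set against it. The list summed to 18.2 in OvacD8 replicate 1, to -0.09 and 0.74 in the other OvacD8 arrays and to between -2.20 and -1.60 in 2D11. The B cell genes Cd79a and Cd79b spanned 0.03 each, Ms4a1 at most 0.19 and Ighm at most 0.58. At Ighm 1427870_x_at, OvacD8 replicate 1 read 0.56. Of the 30 probe sets, 1 passed, of the class II gene H2-Ab1, lower in 2D11 by -2.95 (limma adjusted p = 0.00816). Of 6 probe sets for CD4 T cell markers, 3 for Zbtb16 of invariant NKT cells and 3 for NK cell markers, 0 passed with limma and 0 had an unadjusted p under 0.05. Of 16 for T cell genes (the CD3 and CD8 chains, Cd5, Cd6 and Thy1), 2 were higher and 3 lower in 2D11. The share that passed was 31.2%, against 4.06% of all probe sets. These calls, on Cd247, Cd8b1, Cd8a and Cd6, are the same ones given below with the CD3 chains, coreceptors and signalling genes.

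At Trgv1, OvacD8 replicate 1 lay -0.18 from the mean of the other OvacD8 arrays, and the 2D11 mean exceeded it by 3.32. At Trbv1 1452205_x_at it lay 0.05 from the other OvacD8 arrays, and the 2D11 mean minus its value was -1.64. Within the side of the poly-A divide that holds 2D11 and OvacD8 replicate 1, both differences thus rest on that 1 OvacD8 array. With the divide as a term of the fit they passed (limma adjusted p = 0.00297 for Trgv1 and 0.0027 for Trbv1), a fit that takes OvacD8 replicate 1 to vary like the other arrays. At Trav13-5, OvacD8 replicate 1 lay 0.84 above the mean of the others, and at the probe set of Trgv4 and Trgv2 it lay 0.66 above. In the same array, 6 of the 30 probe sets of antigen-presenting cell genes stood at least 1 above all other arrays, a count without a share over all probe sets beside it. Not all such genes were high there: H2-Ab1 1451721_a_at read 0.27 in OvacD8 replicate 1, and 1.85 and 2.1 in replicates 2 and 3. The part of these genes in the readings of Trav13-5 and of the Trgv4 and Trgv2 probe set was not tested.

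With each array left out in turn, the Trgv1 difference ran from 3.15 to 3.29 and that of Trbv1 1452205_x_at from -1.64 to -1.59. The highest limma adjusted p was 0.00626 for Trgv1, without OvacD8 replicate 2, and 0.00402 for Trbv1, without 2D11 replicate 1. The number of receptor probe sets that passed was 2 in each of these 6 fits.

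**Figure D3:**
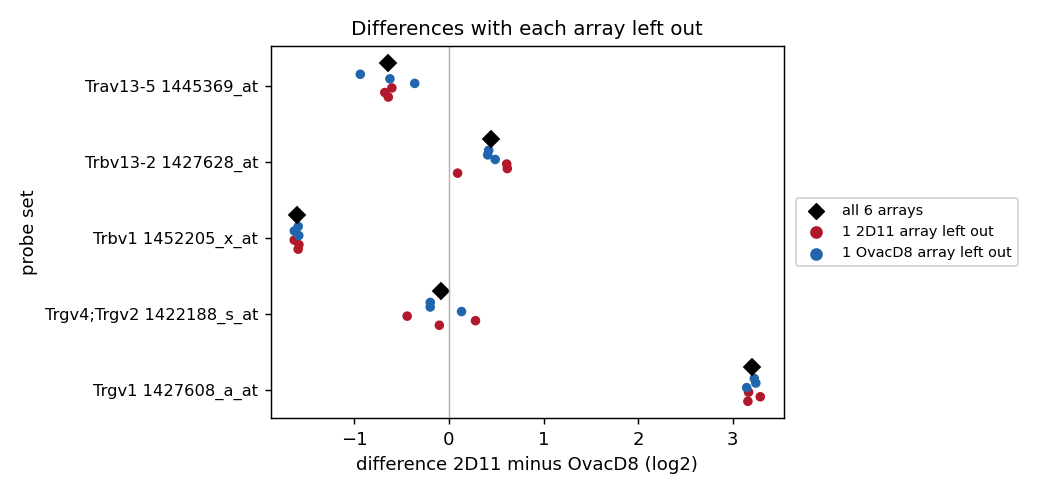
For the 5 receptor probe sets that passed or spanned at least 1, black diamonds give the difference over all 6 arrays (2D11 minus OvacD8, log2), and circles the difference with 1 2D11 array (red) or 1 OvacD8 array (blue) left out. The circles of Trgv1 and Trbv1 1452205_x_at stay near the diamond, and those of the probe set of Trgv4 and Trgv2 fall on both sides of 0.

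A further 7 probe sets carry alpha segment symbols with a D or N letter, which marks copies of a variable segment in the duplicated stretches of the mouse alpha locus. They do not meet the naming rule and are given beside the alpha members. Of the 7, 2 were higher in 2D11, 0 were lower and 5 did not pass. The calls were both on Trav9d-3, which has 5 probe sets. Probe set 1426113_x_at read 0.74, 0.90 and 0.89 in 2D11 replicates 1, 2 and 4, and -0.90, -0.94 and -0.74 in OvacD8 replicates 1, 2 and 3. The difference was 1.71 ± 0.07 (SE; limma adjusted p = 0.00103). Probe set 1452405_x_at read 0.67, 0.79 and 0.82 in 2D11, and -0.67, -0.94 and -0.84 in OvacD8, a difference of 1.58 ± 0.08 (SE; limma adjusted p = 0.00192). Both end in _x_at, as does the Trbv1 probe set that passed.

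The mean of all Trav9d-3 probe sets was higher in 2D11 by 0.82 (limma adjusted p = 0.00068). Those other than 1426113_x_at and 1452405_x_at did not pass, though the lines did not overlap at 1426168_a_at and 1427653_at. Their differences were 0.41 (1426168_a_at; limma adjusted p = 0.0748), 0.59 (1427653_at; 0.351) and -0.17 (1427766_at; 0.774), and in the last only OvacD8 replicate 1 stood out, at 0.53. Trav12n-2 (1446476_at) read -0.40, -0.53 and -0.47 in 2D11 and 1.40, 0.89 and 0.40 in OvacD8 replicates 1, 2 and 3. The lines did not overlap, yet the OvacD8 arrays were widely spread, and the difference of -1.36 ± 0.26 (SE) did not pass (limma adjusted p = 0.0717). It passed in 5 alternatives: with the poly-A divide as a term (-1.86, limma adjusted p = 0.0278), with only probe sets spanning at least 0.1 tested (0.0245), without OvacD8 replicate 1 (-1.11, 0.0327), without OvacD8 replicate 3 (-1.61, 0.0444) and with array weights (-0.83, 0.00493). Trav12n-1 spanned 0.02.

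**Figure D4:**
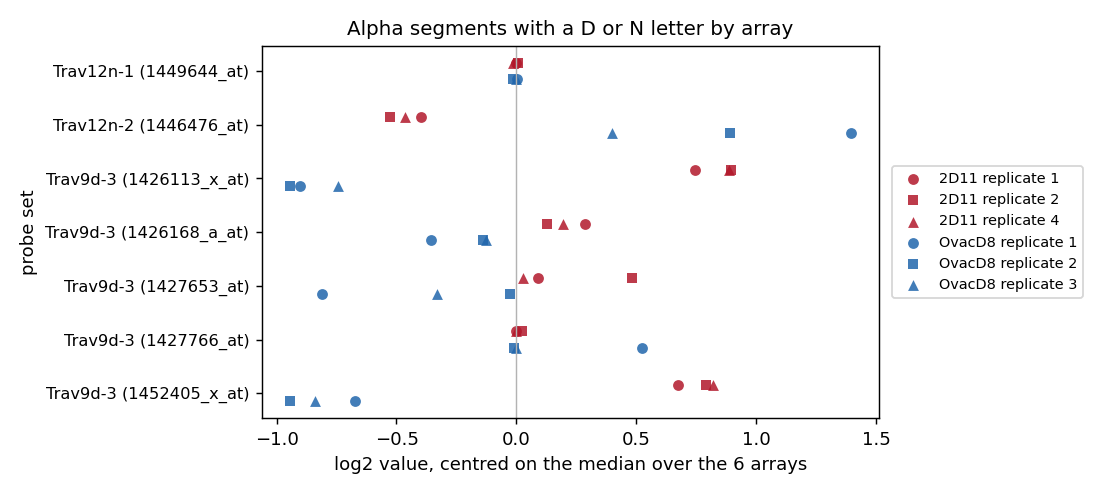
Each row is 1 alpha probe set whose symbol has a D or N letter, and each point the centred log2 value of 1 array (red, 2D11; blue, OvacD8; marker shape, replicate). The lines do not overlap in 5 of the 7 rows, against 20.3% of all probe sets. The Trav9d-3 probe sets 1426113_x_at and 1452405_x_at passed, higher in 2D11, while 1427766_at of the same symbol reads near 0 in 5 arrays.

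The receptor reaches the cell surface only with the CD3 chains, and signals through them. Of 10 probe sets for CD3 and surrogate receptor chains, 2 were lower in 2D11 and 8 did not pass. Both were probe sets of Cd247, the CD3 zeta chain, which carries the most signalling motifs of the complex: 1426396_at was lower by -1.25 ± 0.08 (SE; limma adjusted p = 0.00399) and 1420716_at by -1.09 ± 0.07 (SE; 0.00402). The other Cd247 probe sets stood at -1.27 (1452539_a_at; adjusted p = 0.148) and 0.01 (1426079_at; 0.87). Cd3d, Cd3e and Cd3g, the delta, epsilon and gamma chains of CD3, stood at -0.73, 0.08 and 0.29 (adjusted p = 0.0978, 0.798 and 0.723). Ptcra, the surrogate alpha chain of thymocytes, stood at -0.21 (adjusted p = 0.767), and the receptor-associated adaptor Trat1 at 0.09 and 0.00 (0.878 and 0.943).

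Of 8 coreceptor probe sets, 1 was higher and 1 lower in 2D11. Cd8b1, the CD8 beta chain, read between -1.48 and -1.07 in 2D11 and between 1.07 and 1.16 in OvacD8. The OvacD8 label names the same CD8 alpha homodimer as 2D11, yet this chain was lower in 2D11 by -2.36 (limma adjusted p = 0.00142). Cd8a, the alpha chain of both CD8 forms, was higher at 1444078_at (0.85, limma adjusted p = 0.00814; 0.0515 without OvacD8 replicate 2). Its 4 other probe sets did not pass, with differences from -2.40 to 0.25, and the mean of the 5 was -0.26 (limma adjusted p = 0.352). The 2 Cd4 probe sets spanned at most 0.20.

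**Figure D5:**
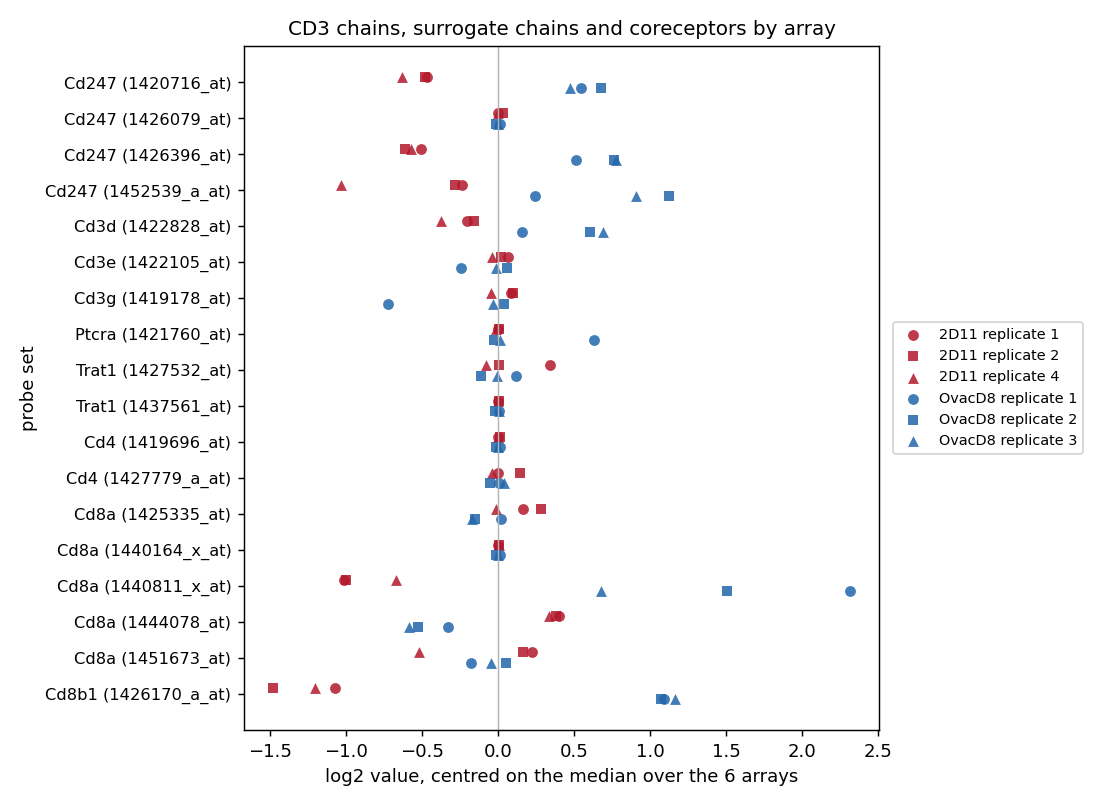
Each row is 1 probe set of a CD3 chain, surrogate chain, receptor adaptor or coreceptor, and each point the centred log2 value of 1 array (red, 2D11; blue, OvacD8; marker shape, replicate). The lines do not overlap in 4 of the 10 CD3 and surrogate rows and in 3 of the 8 coreceptor rows, against 20.3% of all probe sets. Of those that passed, Cd8b1 and the Cd247 probe sets 1420716_at and 1426396_at are lower in 2D11, and Cd8a 1444078_at is higher.

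Recombination genes, which cut and join the segments, showed 1 higher probe set, 0 lower and 16 that did not pass. That 1 was Hmgb2 (1437313_x_at), a chromatin protein that helps the recombinase bend DNA, at 0.42 (limma adjusted p = 0.0144; 0.0709 without 2D11 replicate 1). The other Hmgb2 probe sets stood at 0.16 (1438307_at) and 0.18 (1452534_a_at) and did not pass, nor did the mean per symbol (0.25, limma adjusted p = 0.114). The recombinase genes Rag1 and Rag2 spanned 0.06 and 0.12, and Dntt, which adds bases at the joints, at most 0.06. Of 31 probe sets of receptor-proximal signalling, 1 was higher and 2 were lower. Cd6, a surface regulator of receptor signals, was higher by 1.85 (limma adjusted p = 0.00104). Lcp2, an adaptor downstream of Zap70, was lower by -3.02 at 1418642_at (limma adjusted p = 0.000686) and stood at 0.27 at 1418641_at (adjusted p = 0.144). Csk, the kinase that restrains Lck, was lower by -0.20 (limma adjusted p = 0.0356) but did not pass in any of the 6 fits with 1 array left out (highest 0.131, without OvacD8 replicate 3).

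Of 32 probe sets of transcription factors that bind receptor loci, 3 were higher and 0 were lower. Ets1, which binds receptor gene enhancers, was higher by 2.68 and 1.92 at 1422028_a_at and 1422027_a_at (limma adjusted p = 0.0166 and 0.0148), and stood at 0.44 and 0.32 at 2 further probe sets that did not pass. Those calls ended in 5 and 4 of the 6 fits with 1 array left out (highest adjusted p = 0.0813, without OvacD8 replicate 2, and 0.0677, without OvacD8 replicate 3). Bcl11b, a factor of T cell commitment, was higher by 0.66 at 1450339_a_at (limma adjusted p = 0.0498), a call that ended in 5 of the 6 fits with 1 array left out (highest 0.174, without OvacD8 replicate 2) and in 8 of the other alternatives. The other Bcl11b probe sets stood at 0.505 (1435227_at), 0.21 (1452966_at) and 0.02 (1438784_at) and did not pass, nor did the mean per symbol (0.35, limma adjusted p = 0.0872). Over all these companion lists, 11 of 98 probe sets passed, 11.2%, against 4.06% of all probe sets. Without OvacD8 replicate 1 it was 20 of 98, 20.4%, against 10.6% of all probe sets, and without OvacD8 replicate 2 it was 5, 5.10%, against 1.80%. It was 6 and 7 of 98 without 2D11 replicates 1 and 4. In those fits 914 and 1013 of all 45037 probe sets passed, against 1827 with all 6 arrays.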

How the data were processed

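Cultured T cells were profiled on 6 mouse arrays. The authors deposited 1 table of log2 values; per the submitters' processing notes these came from RMA (version not stated). The log base is not given in the sources used here. Base 2 was an assumption. With controls included, 1 probe set ranged over 11.37, and natural logs of 16-bit intensities of at least 1 can range over at most 11.09. Every probe set's median over the arrays lay within 5e-07 of 0, a centring that no source mentions and that removes levels. Groups and replicate numbers came from the titles.

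Of 45101 probe sets, 64 controls were left out. Symbols came from the platform's gene table, which did not list 9160 probe sets. The 8 member symbols matched a RefSeq table of assembly GRCm38.p6. No coordinates or sequences are given.

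Groups were compared per probe set with limma 3.58.1 in R 4.3.3 (lmFit and eBayes, two-sided, no covariates; prior degrees of freedom 0.87), with Benjamini-Hochberg adjustment over 45037 probe sets. The fit was tested on simulated arrays of 45037 probe sets, with independent normal noise at each probe set's own spread within the lines. Changed probe sets were drawn only from those spanning at least 0.1. The fit found 53% of 100 given a log2 change of 1, 75% of 100 given a log2 change of 2, and called 10 without a change. The noise did not carry the departure of OvacD8 replicate 1, so these figures may not hold for the real arrays. An exact permutation test of 3 against 3 cannot go below p = 0.1 and was not used. The number of arrays limits the precision.

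Named in full were members that passed or spanned at least 1, all CD3 and coreceptor genes, and up to 4 passing probe sets of each other list. Other members, the segments with a D or N letter, the markers beside a result and the other probe sets of a named gene were named after their values were seen. The members, the lists and the alternatives were chosen with earlier results of these data known. Alternatives were leaving out each array, a replicate block, robust variances, array weights, other scalings, filters on span, identifier or symbol, means per symbol, and the poly-A divide as a term.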

Additional observations from a re-analysis of the deposited data

How the results depend on the processing

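Centring hides levels and 3 arrays per line limit precision. The number of receptor probe sets passing, 2 over all arrays, was 2 in every fit with 1 array left out, with robust variances, both other scalings, the span filter, single-symbol probe sets, means per symbol and the poly-A divide. It was 3 with array weights, 1 without probe sets ending in _x_at or _s_at, which drops Trbv1 by construction, and 0 with the replicate block. The numbers 1 and 2 are shared between lines by title only: deviations of same-numbered arrays correlated at -0.03 and 0.21. With the block, 1 residual degree of freedom is left, Trgv1 stood at 3.19 (limma adjusted p = 0.0541) and Trbv1 at -1.62 (0.0529); 229 probe sets in all and 3 companion ones passed. In all, 1827 probe sets passed, and 811 to 4773 with 1 array left out; companions ran from 5 to 20 against 11. Array weights called 17219 and 55 (the weight estimation did not converge, and the cause was not tested), and gave Trbv13-2 1.02 (adjusted p = 0.0131) and the Trgv4 and Trgv2 probe set 0.17. The span filter, which tests fewer probe sets, called 2962. The poly-A divide ended the calls of Ets1 1422027_a_at, Csk, Hmgb2 and Bcl11b (adjusted p = 0.062, 0.0891, 0.0667 and 0.156). Means per symbol called 6 companions and turned Cd8a 1444078_at to -0.26. The Trgv4 and Trgv2 difference ran from -0.44 to 0.28 with 1 array left out. Quantile scaling split all calls 676 higher to 1112 lower, and the poly-A divide 822 to 1539, against 902 to 925.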
